A study of Homo sapiens with 12 samples.

Results

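The transcript of BMF, a gene of the BCL2 family, was followed together with 9 relatives in T24 cells, an established human bladder carcinoma line. The 10 genes were taken by symbol: the BH3-only genes BMF, BCL2L11, BBC3, PMAIP1, BIK, BID and BAD, and the anti-apoptotic genes BCL2, BCL2L1 and MCL1. All 10 symbols matched 1 row each among the 60603 genes of the count table, and 9 of the 10 passed the filter on low counts, which BIK did not. BMF had been chosen by its own change with the inducer in NS1 cells and by the difference of that change from WT cells, so its values in those comparisons are given as a description and were not tested. That difference also rests on the WT libraries and the untreated NS1 libraries. The p-values of BMF in WT cells and between the untreated lines are therefore not independent of the choice. The other members entered as relatives of BMF by name, in a choice made with earlier results of these data known. Their p-values may therefore not be fully independent of the choice either.

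The series is about an inducible system for degrading endogenous proteins, named AlissAID, and gives poly(A) RNA-seq of T24 cells of genotype WT and genotype NS1. Each genotype was left without treatment or given 5-Ad-IAA, called the inducer here, which makes 4 groups of 3 libraries: WT untreated, WT with inducer, NS1 untreated and NS1 with inducer. The labels do not spell out NS1, name the degraded protein, give the dose or time of the inducer, or state what WT cells carry of the degradation system and whether NS1 cells are 1 clone. They also do not say whether the replicates were separate cultures, so p-values measure the spread between these libraries, which may be technical.

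BCL2 family proteins decide whether the mitochondrial outer membrane is opened during apoptosis. BAX and BAK1 form the pores, anti-apoptotic proteins such as BCL2, BCL2L1 (BCL-XL) and MCL1 hold them in check, and BH3-only proteins bind the anti-apoptotic proteins or, for some, activate BAX and BAK1 directly. Several BH3-only genes are regulated by transcription: BMF and BCL2L11 (BIM), whose proteins can be held on the cytoskeleton through dynein light chains, respond in many cells to loss of attachment or of growth factor signalling, while BBC3 (PUMA) and PMAIP1 (NOXA) are known targets of p53.

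Library totals ran from 10593934 to 20266996 counts, and replicate 1 was the deepest library in each of the 4 groups. Replicate 1 also stood apart in its counts in 3 of the 4 groups. There, pairs with it differed by a chi-square of 17.6 to 26.3 per degree of freedom, and replicates 2 and 3 by 3.03 to 5.46. In WT untreated, pairs with replicate 1 differed by 25.3 and 30.7, and replicates 2 and 3 by 18.2. The chi-square also grows with the depth of the libraries. With trimmed-mean (TMM) scaling, a level of 1 CPM (the normalised count, scaled to a library of one fixed size) stood for 10.3 to 21.3 counts. Of the epithelial markers, 4 of 5 reached a mean of 1 CPM, with KRT7, KRT8 and KRT18 high and CDH1 at or near 0, while 3 of 3 mesenchymal, 3 of 5 urothelial and 0 of 4 leukocyte markers did so. Of the 3 endothelial markers, PECAM1 was the 1 that reached it. In bulk RNA, a change in the share of cells of one kind and a change in RNA per cell cannot be told apart.

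BMF lies on chromosome 15 (hg38 coordinates of GENCODE release 29, 40087890 to 40108892, minus strand) and BCL2L11 on chromosome 2 (111119378 to 111168447, plus strand). The promoters of these genes are shown because BMF and BCL2L11 were the BH3-only members that were higher in NS1 cells with inducer. The sequences are from RefSeq on GRCh38.p14, trimmed to leave out annotated exons, and read 5′ to 3′ on the strand of the gene, with the capitals marking motif matches: BMF covers chr15:40108893-40109129 on the minus strand and BCL2L11 covers chr2:111120664-111120913 on the plus strand. The BCL2L11 stretch ends at the start given in the RefSeq table, which lies inside the GENCODE gene, downstream of a first exon of other transcripts.
BMF: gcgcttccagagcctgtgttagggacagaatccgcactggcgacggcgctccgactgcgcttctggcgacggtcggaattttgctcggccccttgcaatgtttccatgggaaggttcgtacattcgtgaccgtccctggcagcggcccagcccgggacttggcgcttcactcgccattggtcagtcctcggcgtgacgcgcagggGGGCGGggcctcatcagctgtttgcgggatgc
BCL2L11: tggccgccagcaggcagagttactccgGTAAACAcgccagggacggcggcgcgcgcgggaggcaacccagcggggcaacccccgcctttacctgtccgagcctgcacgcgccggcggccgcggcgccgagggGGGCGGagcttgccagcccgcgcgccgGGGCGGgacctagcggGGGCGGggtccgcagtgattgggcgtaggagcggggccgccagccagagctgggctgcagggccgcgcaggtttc
The printed BMF stretch is 237 bases long with 64.6% G and C, and that of BCL2L11 is 250 bases long with 76.8%. On both strands, the 250 bases before the start of 35116 RefSeq promoters were searched for GGGCGG (a GC box, the Sp1 type of site), GTAAACA (a forkhead, FOXO type), CACGTG (an E-box) and TGACTCA (an AP-1 type). The BMF stretch held 1 GGGCGG and the BCL2L11 stretch 3, a motif found in 42.6% of promoters. The promoters of BAD, BID and PMAIP1 held GGGCGG too. BCL2L11 also held 1 GTAAACA, 223 bases before that RefSeq start, a motif found in 2.98% of promoters, and the BMF stretch held none. CACGTG, found in 6.34% of promoters, was in those of BBC3 and BID, and TGACTCA, found in 4.2%, was in that of BBC3. The promoter table holds 8 of the 10 members, and these matches describe letters only, not binding.

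BMF was scarce in WT cells and in untreated NS1 cells and was many times higher in NS1 cells given the inducer. In WT untreated libraries it had 1.45, 1.35 and 1.45 CPM in replicates 1, 2 and 3, from 31, 18 and 15 counts. In WT libraries with inducer it had 0.807, 1.56 and 1.17 CPM, from 17, 21 and 13 counts. The WT groups overlapped, and the inducer gave no detectable difference there (log2 fold change -0.31, SE 0.34, edgeR quasi-likelihood test, adjusted p = 1). The difference by which BMF was chosen subtracts this WT change, so this test is not independent of the choice.

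Untreated NS1 libraries held BMF at 2.90, 2.69 and 2.31 CPM, from 47, 37 and 24 counts. Every one of these lay above every WT untreated library, a log2 difference of 0.90 (SE 0.31) that did not pass the test (edgeR, adjusted p = 0.0782, with 0.0157 to 0.0983 over the other settings that use all libraries of the groups compared). It passed without the low-count filter (adjusted p = 0.0157), when only the 6 untreated libraries were fitted (0.0478), and without NS1 inducer replicate 1 (0.0269). These libraries were part of the difference by which BMF was chosen, so no p-value here is independent of that choice.

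In NS1 libraries with inducer, BMF reached 27.1, 13.4 and 17.1 CPM, from 522, 154 and 206 counts. The lowest of these lay above the highest of the other 9 libraries, 2.90 CPM. The group mean was 19.2 ± 7.09 CPM (SD, n = 3) against 2.63 ± 0.300 in untreated NS1 cells, a fitted log2 difference of 2.86 (SE 0.26) or 7.27-fold. Within replicate numbers the log2 differences were 3.17, 2.26 and 2.82. Against WT cells with inducer the log2 difference was 4.07 (SE 0.29), 16.8-fold, and the change in NS1 exceeded that in WT by 3.17 (SE 0.43). NS1 inducer replicate 1 was the highest library, and without it the change in NS1 was 2.52 and the difference from WT with inducer 3.73.

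**Figure D1:**
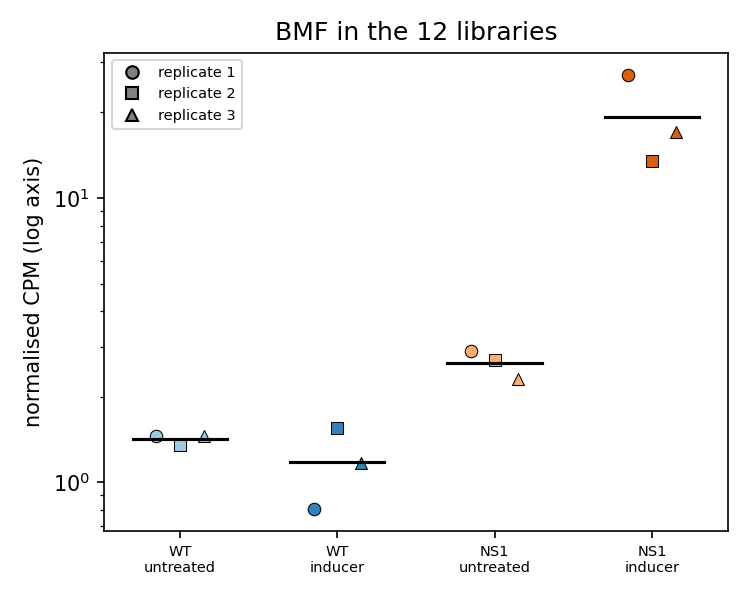
BMF in each of the 12 libraries, as normalised CPM on a log axis, by group on the horizontal axis; symbols mark the replicate number and bars the group mean. The 3 NS1 libraries with inducer sit between 13.4 and 27.1 CPM, above the other 9, which sit between 0.807 and 2.90.

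BMF shares 461 bases of exon with BMF-AS1, an antisense gene on the other strand. BMF-AS1 had 48, 18 and 32 counts in NS1 libraries with inducer and 0 to 6 in each of the others, so it was higher in the same libraries as BMF. Over the whole table, 402 genes have all their exons inside exons of a gene on the other strand that has at least 1000 counts in all. Of these, 378 (94%) had counts, and in all 402 the inner gene did not exceed the outer one. Whether reads of BMF were also counted for BMF-AS1, or the reverse, was not tested, and BMF-AS1 is no separate measurement here.

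With the inducer in NS1 cells, BCL2L11 rose, BCL2 and MCL1 fell, and the other 5 members tested did not pass. These 3 of the 8 members tested compare with 6.15% of 17775 genes tested (1093 genes, edgeR, adjusted p under 0.05). With the replicate numbers of each line as blocks, 4 of the 8 members and 25.9% of genes (4596) were called, so the share of members stood closer to that of all genes. Among the 8 members tested, the libraries of the groups did not overlap for BCL2L11, PMAIP1, BCL2 and MCL1, against 27.2% of genes. BMF did not overlap either, but it was chosen by this change and is not counted. The median log2 fold change over the 9 members, BMF included, was -0.01, and over all genes 0.01. Of the markers, GATA3 (log2 1.34, edgeR adjusted p = 0.0282) and PECAM1 (3.19, 0.0251, at most 34 counts) were higher with inducer in NS1. The calls of GATA3 and PECAM1 were each lost in 5 of 12 fits that left out 1 library (adjusted p up to 0.0986). The summed urothelial markers ran from 147.7 to 212.8 CPM against 97.5 to 114.1 untreated. Nearly all of that sum was GATA3 (group mean 78.2 against 30.9 CPM) and PPARG (92.9 against 72.3). UPK2 stood at 1.90 against 1.35 CPM, and UPK1B and UPK3A at or near 0. The part of these markers in the members' changes was not tested.

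BCL2L11 encodes BIM, which can bind all the main anti-apoptotic proteins. Its level was 9.69, 7.92 and 8.46 CPM in untreated NS1 libraries and 14.8, 11.9 and 13.1 CPM with inducer. The groups did not overlap, and the increase was 1.53-fold (log2 0.61, SE 0.14, edgeR adjusted p = 0.0243). WT libraries held 10.6, 9.31 and 8.99 CPM untreated and 9.64, 8.90 and 7.84 with inducer, so all 6 lay below the lowest NS1 library with inducer. The call was lost with library totals as the scaling (adjusted p = 0.0619), and on leaving out NS1 untreated replicate 2 (0.0993) or 3 (0.0900) or NS1 inducer replicate 1 (0.0673) or 3 (0.0749), with log2 changes of 0.52 to 0.63 in these fits.

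BCL2L11 shares 727 bases of exon with MIR4435-2HG on the other strand. MIR4435-2HG moved the other way in NS1 cells, with a log2 change of -0.22 (SE 0.09, edgeR adjusted p = 0.181), from 31.4 ± 1.45 to 27.0 ± 1.02 CPM (SD, n = 3).

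PMAIP1 encodes NOXA, a BH3-only protein that binds MCL1 in particular. It stood at 61.5, 64.4 and 62.2 CPM in untreated NS1 libraries and at 41.6, 44.8 and 49.3 CPM with inducer. These groups did not overlap, and the log2 difference was -0.47 (SE 0.19, edgeR adjusted p = 0.166). With the replicate numbers of each line as blocks it passed (log2 -0.48, SE 0.08, adjusted p = 0.00054). It also passed with 1 block per replicate number (0.0390), without the low-count filter (0.0199), with only the NS1 groups fitted (0.0301) and without replicate 1 of all groups (0.0301). In WT cells PMAIP1 ran from 36.6 to 66.4 CPM over the 6 libraries, a range that holds all NS1 values of both treatments.

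The 4 other BH3-only genes gave no call with the inducer in NS1. BBC3, which encodes PUMA, ran from 1.67 to 4.23 CPM untreated and from 2.60 to 4.15 with inducer (log2 0.14, SE 0.33, edgeR adjusted p = 0.876). BID, whose protein is cut by caspase 8 to become active, ran from 29.4 to 33.1 and from 25.9 to 31.7 CPM (log2 -0.13, SE 0.16, adjusted p = 0.714). BAD, whose protein is silenced by phosphorylation under growth factor signalling, ran from 43.0 to 46.6 and from 39.2 to 47.7 CPM (log2 -0.01, SE 0.14, adjusted p = 0.990). BIK had between 2 and 17 counts in each of the 12 libraries and was not tested.

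BCL2, the founding anti-apoptotic gene, fell with the inducer in NS1. Its level was 16.1, 14.0 and 12.5 CPM in untreated NS1 libraries and 6.39, 8.99 and 7.31 CPM with inducer. The highest library with inducer lay below the lowest without, a fold change of 0.528 (log2 -0.92, SE 0.20, edgeR adjusted p = 0.0180). The call was lost without NS1 untreated replicate 1 (adjusted p = 0.0664) or 2 (0.0563) or NS1 inducer replicate 3 (0.0760), with log2 changes of -0.93 to -0.82. WT libraries held 7.40, 8.63 and 5.03 CPM untreated and 8.97, 6.60 and 7.47 with inducer, so the NS1 libraries with inducer overlapped the WT range and the untreated NS1 libraries lay above it.

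MCL1, an anti-apoptotic gene whose protein turns over quickly, stood at 255.7, 254.9 and 263.3 CPM in untreated NS1 libraries. With inducer it stood at 191.4, 183.5 and 180.7 CPM, all below the untreated libraries, a fold change of 0.718 (log2 -0.48, SE 0.12, edgeR adjusted p = 0.0355). WT libraries ran from 176.1 to 238.3 CPM untreated and from 191.2 to 237.2 with inducer. The MCL1 call was lost in 7 of 12 fits that left out 1 library: NS1 untreated replicate 1, 2 or 3, NS1 inducer replicate 1, 2 or 3, or WT inducer replicate 2, with log2 changes of -0.50 to -0.46 and adjusted p of 0.0511 to 0.129.

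BCL2L1, which encodes BCL-XL, gave no call. It ran from 206.7 to 260.2 CPM in untreated NS1 libraries and from 203.3 to 293.0 with inducer (log2 0.13, SE 0.15, edgeR adjusted p = 0.717), and the groups overlapped. ABALON, on the other strand, shares 1424 bases of exon with BCL2L1 and had group means of 99.6 to 120.5 CPM; whether reads of BCL2L1 were also counted for ABALON was not tested.

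**Figure D2:**
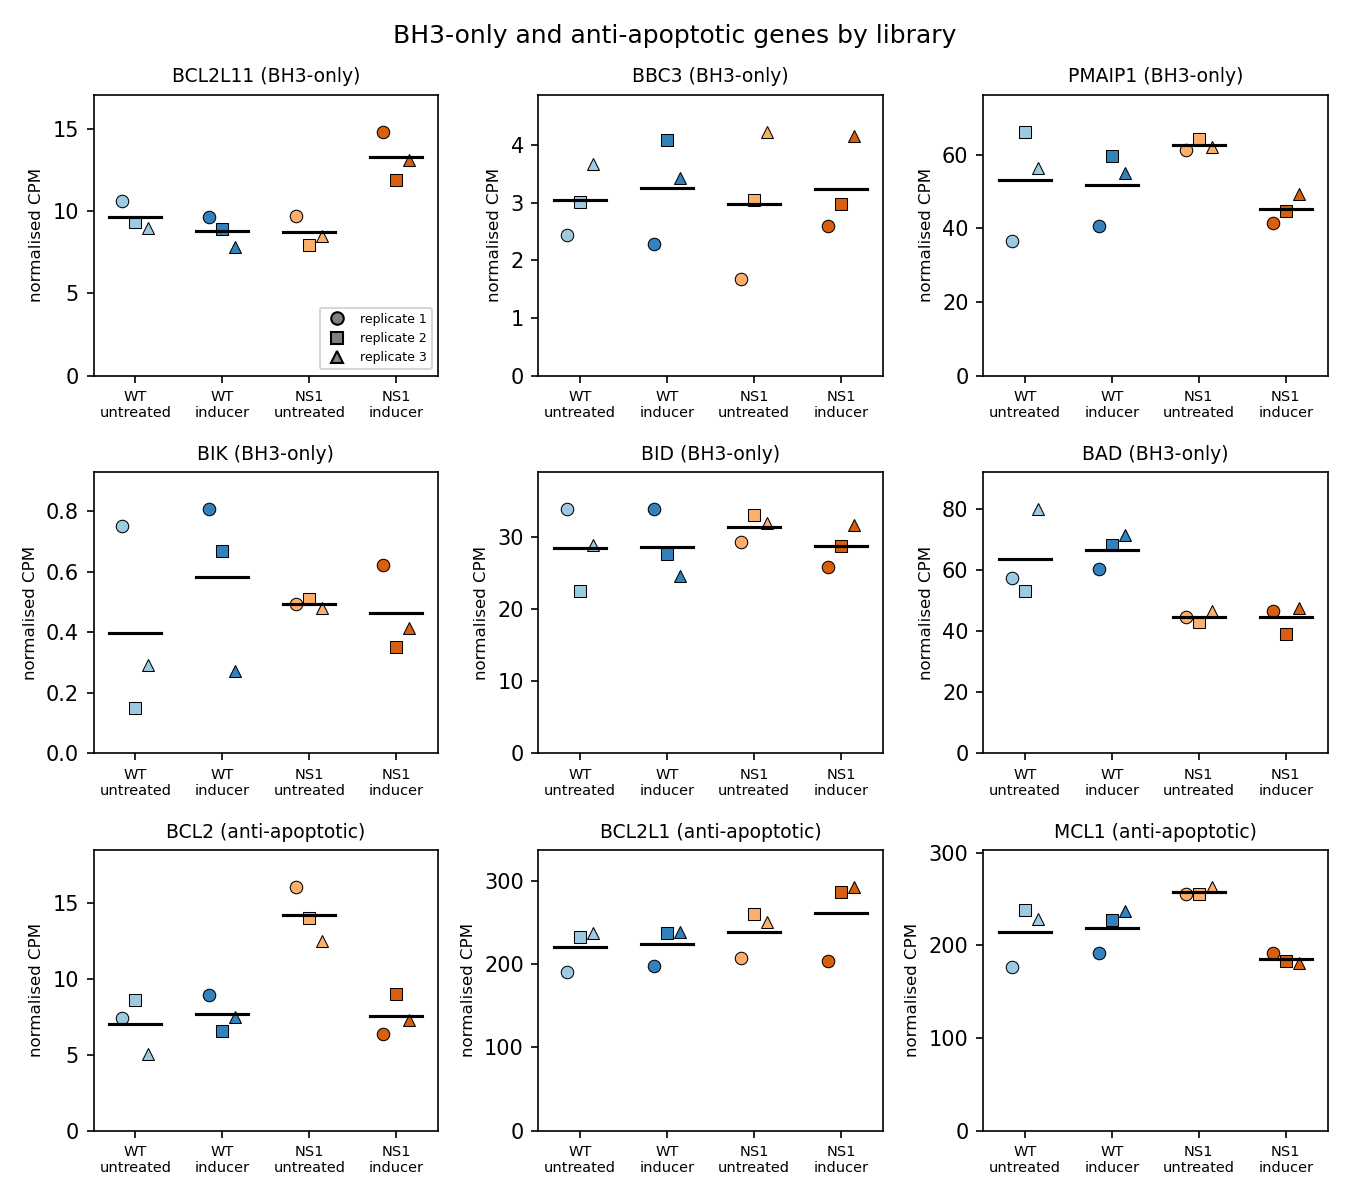
The other 9 members in each of the 12 libraries, as normalised CPM from 0, by group on the horizontal axis; symbols mark the replicate number and bars the group mean. BCL2L11 is highest in the 3 NS1 libraries with inducer (11.9 to 14.8 CPM), and BCL2 is highest in the 3 untreated NS1 libraries (12.5 to 16.1 CPM).

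In WT cells no member passed the test of the inducer: 0 of 9 were called (edgeR, adjusted p under 0.05), 0 had an unadjusted p under 0.05, and DESeq2 called 0. The same comparison called 0% of all genes, with 94 genes at an unadjusted p under 0.05. The groups overlapped for all 9 members, against 3.41% of genes without overlap. BMF is counted among the 9, although its WT values were part of its choice. Log2 differences ran from -0.31 for BMF to 0.13 for BCL2 (SE 0.21), and BCL2L11 stood at -0.13 (SE 0.14).

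**Figure D3:**
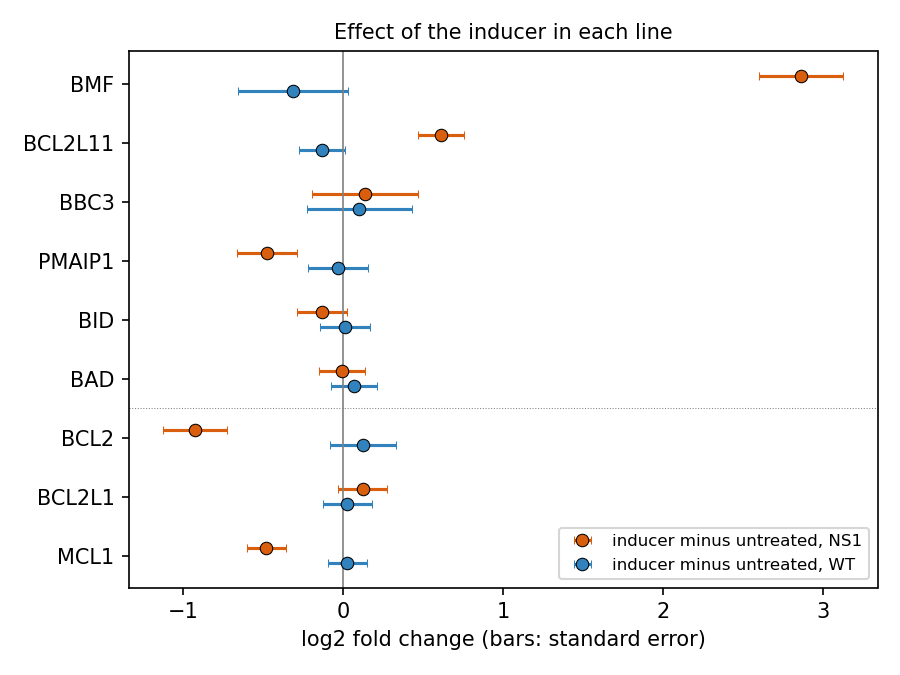
Log2 fold change with inducer, separately for NS1 cells and WT cells, of the 9 members that passed the filter, with standard errors as bars; the dotted line separates BH3-only genes (above) from anti-apoptotic genes. In NS1 BMF stands at 2.86 and BCL2 at -0.92, while in WT the 9 values lie between -0.31 and 0.13.

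The difference between the inducer's effects in the lines was tested as an interaction. None of the 8 members tested passed in edgeR, against 0.0225% of all genes (4 genes). An unadjusted p under 0.05 was found for 3 members and for 12.4% of genes (2196), and DESeq2 called 1 member (BCL2, adjusted p = 0.0452) and 2.31% of genes (375). The values were 0.74 for BCL2L11 (SE 0.20, edgeR adjusted p = 0.130), -1.05 for BCL2 (SE 0.29, 0.134), -0.51 for MCL1 (SE 0.17, 0.222) and -0.44 for PMAIP1 (SE 0.27, 0.569). The other 4 lay between -0.15 for BID and 0.10 for BCL2L1.

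With the replicate numbers of each line as blocks, these 4 genes passed: BCL2L11 (log2 0.74, adjusted p = 0.0041), BCL2 (-1.08, 0.00714), MCL1 (-0.51, 0.00283) and PMAIP1 (-0.47, 0.0131). The same blocked fit called 14% of genes (2495). Within replicate numbers, BCL2L11 rose by 0.61, 0.57 and 0.62 on the log2 scale in NS1 and stood at -0.13, -0.06 and -0.20 in WT, so each NS1 pair went up and each WT pair down. The WT change of BCL2L11 was not called (log2 -0.13, SE 0.14). MCL1 stood at -0.42, -0.47 and -0.54 in the NS1 pairs and at 0.12, -0.07 and 0.06 in the WT pairs.

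Without inducer, 2 of the 9 members differed between the lines, against 12.5% of all genes (2222 genes). The groups did not overlap for 4 of 9 members, BMF, BAD, BCL2 and MCL1, against 31% of genes, and BMF was chosen in part by these libraries. Of the markers, VIM (log2 -1.20, edgeR adjusted p = 0.00159) and EPCAM (-1.76, 0.0155) were lower in NS1 and CDH2 higher (0.58, 0.00679), and their part was not tested. BCL2 was 2.01-fold higher in NS1 (log2 1.01, SE 0.20, edgeR adjusted p = 0.00678), and stayed called in each of the 12 fits without 1 library, but not without replicate 2 (0.0642) or replicate 3 (0.115) of all groups. BAD was lower in NS1, at 44.6, 43.0 and 46.6 CPM against 57.5, 53.2 and 80.1 in WT (log2 -0.51, SE 0.14, adjusted p = 0.0373).

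WT untreated replicate 3 was the highest BAD library, and without it the log2 difference was -0.31 (edgeR adjusted p = 0.126). The BAD call was also lost without NS1 untreated replicate 1, 2 or 3 (adjusted p of 0.0800 to 0.121), WT inducer replicate 2 (0.0548) or 3 (0.0513) or NS1 inducer replicate 3 (0.0503), and with only the untreated groups fitted (0.0744). MCL1 differed by 0.27 (SE 0.12, adjusted p = 0.167). The 5 remaining members besides BMF ran from -0.15 for BCL2L11 to 0.25 for PMAIP1.

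With inducer, BCL2L11 was higher and BAD lower in NS1 than in WT. These 2 of the 8 members tested compare with 28.2% of all genes (5007 genes), a background above the share of members. Among the 8 members tested, the libraries did not overlap for BCL2L11 and BAD, against 43.4% of genes. BMF did not overlap either, but it was chosen by its change in the NS1 libraries with inducer and is not counted. GATA3 (log2 1.38, edgeR adjusted p = 0.00638), PPARG (0.84, 0.0281), KRT7 (1.16, 0.0243) and CDH2 (0.98, 8.65e-05) were higher and VIM lower (-1.30, 0.000268) in NS1, and the part of these markers was not tested. BCL2L11 was 1.51-fold higher (log2 0.59, SE 0.14, edgeR adjusted p = 0.00755) and BAD stood at 46.7, 39.2 and 47.7 CPM against 60.3, 68.4 and 71.7 in WT (log2 -0.58, SE 0.14, adjusted p = 0.00914). Both stayed called in each of the 12 fits without 1 library.

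BCL2, which differed between the untreated lines, stood at -0.04 between the treated ones (SE 0.21, edgeR adjusted p = 0.907). MCL1 stood at -0.24 (SE 0.12, adjusted p = 0.163), BCL2L1 at 0.22 (SE 0.15, 0.315) and PMAIP1 at -0.20 (SE 0.19, 0.474). Without replicate 1 of all groups, MCL1 (log2 -0.35, edgeR adjusted p = 0.01245) and BCL2L1 (0.29, 0.0294) passed. GPR137, which shares 404 bases of exon with BAD on the other strand, stood at -0.34 without inducer (adjusted p = 0.101) and -0.27 with inducer (0.140), the same direction as BAD.

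**Figure D4:**
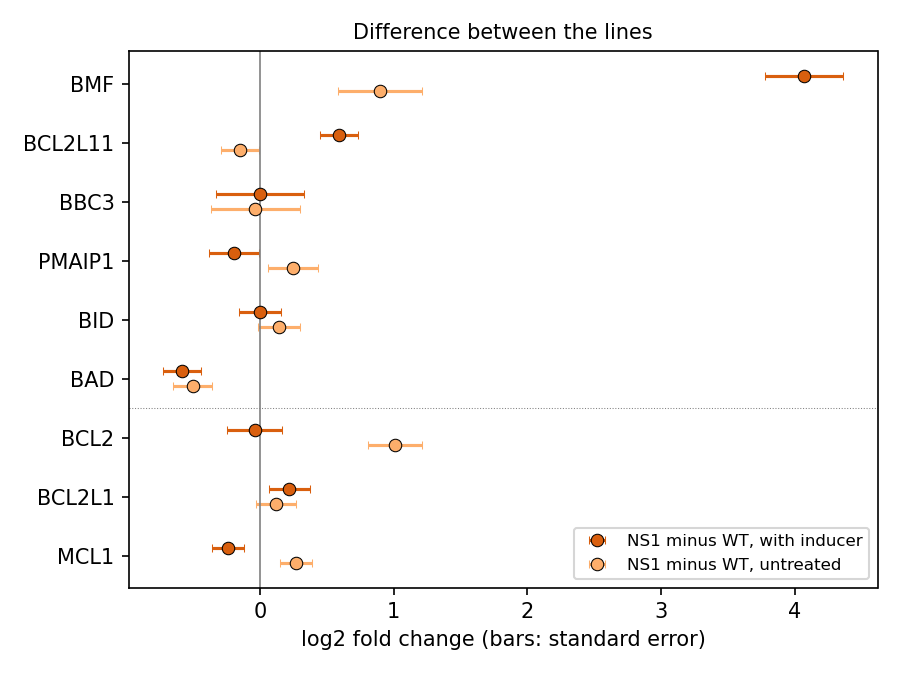
Log2 difference of NS1 from WT cells for the 9 members that passed the filter, with inducer and untreated, with standard errors as bars; the dotted line separates BH3-only genes (above) from anti-apoptotic genes. BCL2 stands at 1.01 untreated and -0.04 with inducer, BAD at -0.51 and -0.58, and BMF at 0.90 and 4.07.

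Levels of different genes were compared as CPM per kilobase of exon. Over the 12 libraries the order by mean was BCL2L1 (71.2), MCL1 (50.1), BAD (32.2), PMAIP1 (23.8), BID (6.61), BCL2L11 (1.52), BMF (1.12), BBC3 (0.984), BCL2 (0.775) and BIK (0.508). BCL2L1 exceeded MCL1, MCL1 exceeded BAD, PMAIP1 exceeded BID, and BID exceeded BCL2L11 in 12 of 12 libraries. From BCL2L11 to BIK, and between BAD and PMAIP1, neighbours changed places between libraries: BAD was above PMAIP1 in 9 of 12, BCL2L11 above BMF in 9, BMF above BBC3 in 4, BBC3 above BCL2 in 9 and BCL2 above BIK in 8.

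BMF changed its place with the condition. It held 0.260 ± 0.011 CPM per kilobase (SD, n = 3) in WT untreated, 0.216 ± 0.069 in WT with inducer, 0.483 ± 0.055 in NS1 untreated and 3.53 ± 1.30 in NS1 with inducer, where BCL2L11 held 1.99 ± 0.222. MCL1 was 109.8 to 295 times BMF per kilobase in the 9 other libraries, and 8.79, 17.0 and 13.2 times in the NS1 libraries with inducer. BMF made up 4.49 to 8.24% of the summed per-kilobase level of the 7 BH3-only genes in NS1 with inducer and 0.230 to 0.842% in the other libraries. That sum itself was 55.0 to 64.0 with inducer in NS1 and 63.2 to 65.9 untreated, and BAD and PMAIP1 held most of it.

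The 5 genes whose log2 CPM was most like that of BMF over the 12 libraries were ARMCX7P (Pearson r 0.973), FTH1P12 (0.972), GULP1 (0.970), ARMCX6 (0.969) and MXD4 (0.968). The 12 points share 4 groups, so these values mainly describe group means. MXD4, which encodes a MAX-binding repressor, held 57.5 ± 6.06 CPM (SD, n = 3) in untreated NS1 and 110.5 ± 14.6 with inducer, and GULP1, an adaptor in the clearance of apoptotic cells, held 79.5 ± 14.5 and 135.0 ± 4.70. ARMCX7P and FTH1P12 carry pseudogene names and their reads may belong to their parent genes. Among the members, BCL2L11 had r of 0.836 and BAD -0.631 with BMF. By ranks (Spearman), BCL2L11 had 0.580 and BAD -0.699.

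Among 17 other BCL2 family genes, 12 could be tested and 0 passed with the inducer in NS1 (edgeR), against 6.15% of all genes. The groups did not overlap for 6 of the 12, against 27.2% of genes. The pore formers BAX and BAK1, named for their role, stood at -0.22 (SE 0.13, edgeR adjusted p = 0.359) and -0.18 (SE 0.10, 0.304). Between the treated lines 2 of 12 were lower in NS1, below the 28.2% of all genes called there. BCL2A1, an anti-apoptotic gene, had 0.260, 0.0873 and 0.0830 CPM in NS1 against 0.760, 4.67 and 3.96 in WT (log2 -4.16, SE 0.98, adjusted p = 0.00709), with at most 5 counts in any NS1 library with inducer. BCL2L12 stood at 25.2 ± 1.17 CPM in WT and 16.9 ± 2.31 in NS1 (SD, n = 3, adjusted p = 0.00581).

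Of 20 genes in a list of caspase, apoptosome and inhibitor of apoptosis (IAP) genes, 19 could be tested. The list also held VDAC1, VDAC2, AIFM1, DIABLO and HTRA2. Of the 19, 1 changed with the inducer in NS1, near the 6.15% of all genes. BIRC5, which encodes survivin, an IAP protein made mainly by dividing cells, fell from 108.8, 101.1 and 105.4 CPM to 71.0, 63.3 and 64.4 (log2 -0.67, SE 0.09, edgeR adjusted p = 0.00309). Without inducer, 5 of 19 differed between the lines, against 12.5% of genes: CASP10 (log2 -1.72, adjusted p = 0.00293), AIFM1 (-0.42, 0.0203), BIRC3 (-1.92, 0.0235) and BIRC5 were lower in NS1, and VDAC2, a mitochondrial channel gene, higher (0.55, 0.00557). Calls were lost on leaving out 1 library in 3 of 12 fits for AIFM1 (adjusted p of 0.0619 to 0.0922), 4 of 12 for BIRC3 (0.0610 to 0.0896) and 9 of 12 for BIRC5 (0.0576 to 0.152), and with only the untreated groups fitted for AIFM1 (0.0507) and BIRC5 (0.127). With inducer, 5 of 19 differed, near the 28.2% of all genes: BIRC5 (66.2 against 132.8 CPM, adjusted p = 1.30e-05), CYCS, the gene of cytochrome c (log2 -0.56, 0.00299), AIFM1 (-0.42, 0.00981) and HTRA2 were lower and VDAC2 higher (0.47, 0.00533).

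Of 15 upstream regulators and partners of BMF and BIM, 14 could be tested. FOXO4, a forkhead transcription factor, rose with the inducer in NS1 from 4.57, 3.78 and 3.66 CPM to 9.93, 7.86 and 8.47 (log2 1.13, SE 0.22, edgeR adjusted p = 0.0117), and it was the 1 called gene of 14, against 6.15% of genes. That call was lost without NS1 untreated replicate 2 (0.0550) or 3 (0.0549). FOXO3, whose protein is known to activate BCL2L11 in other cells, was higher in NS1 without inducer (log2 0.64, adjusted p = 0.00688) and with it (0.99, 0.000152). Without inducer FOXO3 was the 1 called gene of 14, against 12.5% of genes, and BCL2L11 was not called there. That FOXO3 call was lost without replicate 2 (edgeR adjusted p = 0.0642) or 3 (0.110) of all groups. Between the treated lines 6 of 14 differed, against 28.2% of genes: FOXO3, FOXO4 (1.30, 0.00106), BTRC (0.65, 0.0086) and HUWE1, a ubiquitin ligase gene, were higher, and E2F1 (-0.97, 0.00102) and MDM2 (-0.69, 0.0322) lower. The MDM2 call was lost without WT inducer replicate 2 (0.0950) or 3 (0.0823) or NS1 inducer replicate 1 (0.0945) or 3 (0.0968). With the inducer in WT, and in the interaction, 0 genes of these 3 lists passed in edgeR, against 0% and 0.0225% of all genes.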

How the data were processed

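Poly(A) RNA-seq counts per gene of 12 T24 libraries were used as the authors deposited them, in 1 table of raw counts with 60603 Ensembl gene IDs. The submitters' processing notes name STAR 2.7.3a, featureCounts 1.6.4 and the hg38 build, with no role or order; the annotation and the strand setting are not given in the sources used here. IDs were matched to symbols without their version, and exon lengths were taken from GENCODE release 29. All columns had a sample (0 had none). The members and lists were chosen with earlier results of these data known.

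In R 4.3.3, edgeR 4.0.16 (limma 3.58.1) was run with filterByExpr, TMM scaling, 1 mean per group over 12 libraries, and the two-sided quasi-likelihood test. Benjamini-Hochberg adjustment was over all 17775 genes tested, and a gene was called at an adjusted p under 0.05. The script was tested on simulated data. Standard errors were derived from the fold change and the F statistic. The likeness to BMF used log2 CPM with a prior count of 2 over tested genes with a mean of at least 1 CPM.

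Named genes were the 10 members, up to 3 called genes per list, comparison and direction with the lowest adjusted p, and the 5 genes most like BMF. BAX, BAK1, the overlapping genes, BIRC5 without inducer, the markers, and HTRA2 and HUWE1 were named in addition, after their values were seen.

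Alternatives were RLE size factors, library totals, no low-count filter, at least 10 counts in every library, only the groups compared, replicate blocks, DESeq2 1.42.0, and leaving out libraries. Same-numbered libraries of 1 line deviated together, with correlations of 0.713, 0.386 and 0.384 in NS1 and 0.752, 0.385 and 0.256 in WT. The main fit used no blocks. For the inducer comparisons and the interaction, the numbers were taken as pairs only in the alternative fits with blocks. No libraries of a group agreed within sampling noise (lowest chi-square 3.03 per degree of freedom).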

Additional observations from a re-analysis of the deposited data

Results flagged for a closer look

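The effect of the inducer on BMF differed between NS1 and WT cells by 3.17 on the log2 scale; BMF was chosen with this difference in view, so the value is a description. The effect on BCL2L11 differed by 0.74: each of the 3 NS1 pairs went up and each of the 3 WT pairs went down. This difference did not pass the edgeR test without blocks (adjusted p = 0.130) and passed with the replicate numbers of each line as blocks (0.0041). The WT change of BCL2L11 alone did not exceed its standard error (log2 -0.13, SE 0.14) and was not called. How many of all genes show the same pattern of pairs was not counted.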

How the results depend on the processing

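The 68 log2 changes of single genes that were refitted kept their sign in every fit that used all libraries, except BAD with the inducer in NS1, at 0.008 with at least 10 counts in every library. Genes called with the inducer in NS1 numbered 1093 at first, 1801 with no low-count filter, 2421 with 1 replicate block per number and 4596 with a replicate block within each line. Interaction calls numbered 4 at first, 7 with RLE size factors, 683 with no low-count filter, 33 with at least 10 counts, 634 and 2495 with the 2 kinds of replicate block and 375 with DESeq2; the members among them were 0 at first, 1 with no filter, 2 and 4 with the blocks and 1 with DESeq2. Between lines, same-numbered libraries correlated by 0.138, 0.094 and 0.235 untreated and by 0.147, 0.136 and -0.01 with inducer. Not every pair deviated together there, and the numbers were not taken as pairs. These correlations used log2 of CPM plus 1, and those within lines used log2 CPM with a prior count of 2. The replicate block called 3908 genes without inducer, against 2222. Beside the calls given with the results, the blocks changed no member's call. Library totals moved the median gene by at most 0.08 on the log2 scale. The cause of these shifts was not tested.

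Leaving out single libraries or a replicate number gave these ranges. With the inducer in NS1, 0 to 2021 genes and 0 to 3 members were called. Without inducer, 182 to 3466 genes and 0 to 3 members differed between lines, and with inducer 1632 to 6007 genes and 0 to 4 members. In the interaction 0 to 573 genes were called. Among the values refitted, those that changed sign, all uncalled, were BBC3 (-0.17 to 0.45) and BAD (-0.05 to 0.077) with the inducer in NS1, BCL2 in WT (-0.047 to 0.39) and between treated lines (-0.27 to 0.22), and BID in the interaction (-0.31 to 0.01). The 3 members called with the inducer in NS1 lost their calls without replicate 2 (adjusted p of 0.186 to 0.353) and without replicate 3 (0.205 to 0.395) of all groups, and BCL2 also without replicate 1 (0.0515). In each of the fits without replicate 2 or 3, 0 genes in all were called with the inducer in NS1, so these losses are not particular to the members. The highest counts of genes with the inducer in NS1 and in the interaction came without replicate 1. Between treated lines, single-library fits ended the calls of HTRA2 (5 of 12, adjusted p up to 0.123), HUWE1 (4 of 12, 0.124), KRT7 (4 of 12, 0.0901) and PPARG (3 of 12, 0.113), and without inducer EPCAM (3 of 12, 0.0679); library totals ended HUWE1 (0.0849) and PPARG (0.0575). Between treated lines, BCL2L11 lost its call without replicate 2 (0.0700) or 3 (0.113) and BAD without replicate 2 (0.140). BMF and BIK, at 13 to 47 and 2 to 17 counts outside the NS1 libraries with inducer, are the members whose values depth limits most.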
